A study of Homo sapiens with 6 samples.

Results

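RNA levels of 9 genes of the NRF2 and glutathione system were examined in BT-549 cells with and without silencing of PBRM1. The labels name no oxidant treatment. The genes were NFE2L2, KEAP1, NQO1, GCLC, GCLM, HMOX1, TXNRD1, SLC7A11 and SRXN1, taken by symbol as 9 of the 37887 rows of the count table, and all 9 were found. BT-549 is an established triple-negative breast cancer (TNBC) cell line with a mesenchymal phenotype. PBRM1 encodes BAF180, the subunit that defines the PBAF chromatin remodeling complex. RNA-seq of poly(A) RNA was available for 3 control (shCTL) and 3 PBRM1-silenced (shPBRM1) libraries.

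The titles call the first group control shRNA cells. The treatment labels and the design give 0.1% DMSO for that group and 500 ng/ml doxycycline (DOX) for the shPBRM1 group, with a tet-inducible PBRM1 shRNA in the cells of both. The titles and the treatment labels thus differ on which shRNA the control cells carried. What DOX, DMSO or a difference between shRNA lines does and what the loss of PBRM1 does cannot be told apart here. The libraries come from a single cell line, and the length of the DOX treatment is not given for them in the sources used here. The labels describe culture in triplicate without saying whether the cultures were independent, so p-values measure only the spread between these libraries. In bulk RNA, fewer cells expressing a gene and less RNA per cell cannot be told apart.

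NRF2, the product of NFE2L2, is a transcription factor that is held in the cytoplasm by KEAP1, an adaptor of a CUL3 ubiquitin ligase, and degraded. Oxidants and electrophiles modify cysteines of KEAP1, after which NRF2 accumulates, pairs with small MAF proteins and binds antioxidant response elements (ARE) in its target genes. These targets supply cystine and glutathione, reduce thioredoxin and peroxiredoxins, and clear quinones and heme.

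The libraries held between 36429395 and 65096297 counts. Levels are counts scaled to a common library size (CPM) with edgeR's TMM factors, and 3 counts, taken as the floor of detection, corresponded to between 0.0471 and 0.0804 CPM, which covers counting error only. PBRM1 had 5870, 7619 and 8118 counts in control cells and 2598, 1591 and 2657 after silencing. Its level fell from 158 ± 2.30 to 41.9 ± 1.22 CPM (SD, n = 3 in each group), which is 26.5% of the control (log2 change -1.91, edgeR adjusted p = 9.98e-23). The 5 mesenchymal markers VIM, CDH2, FN1, ZEB1 and SNAI2 were detected, with a summed level of 1640 to 1691 CPM in shCTL and 1501 to 1530 CPM in shPBRM1 cells. Each of the 5 moved, however: VIM and CDH2 rose by 0.31 and 0.54 on the log2 scale, and FN1, ZEB1 and SNAI2 fell by 1.33, 0.55 and 0.73 (edgeR adjusted p = 1.51e-07, 4.65e-11, 1.05e-17, 8.82e-12 and 1.1e-10). Their part in the results for the 9 genes was not tested. Of the receptors that define TNBC by their absence, ESR1 and PGR had at most 2 and 12 counts in any library, whereas ERBB2 RNA was at 51.3 ± 1.10 CPM in shCTL and 50.02 ± 0.431 CPM in shPBRM1 cells. Markers of leukocytes and endothelium (PTPRC, CD3E, CD14, PECAM1 and VWF) summed to 1.04 to 1.58 CPM in shCTL and 0.866 to 0.879 CPM in shPBRM1 cells, and 1 of these 5 had no count in any library.

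The 9 genes did not move together. Levels of the transporter SLC7A11, the glutamate-cysteine ligase subunit GCLM and the repressor KEAP1 rose in shPBRM1 cells. Those of NFE2L2, HMOX1, GCLC, TXNRD1 and NQO1 fell. Changes ranged from a decrease of HMOX1 to 52.0% of the control to a 1.46-fold increase of SLC7A11. By the quasi-likelihood test of edgeR, adjusted by the Benjamini-Hochberg method across 15450 genes, 3 of the 9 were higher at an adjusted p under 0.05, where 31.5% of all genes tested were. A further 5 of 9 were lower, against 33.2% of all genes, and SRXN1 did not pass. No member passed a fold change of 2 as well, in either direction. That count was also 0 at an unadjusted p under 0.05 and with DESeq2. Among all genes, 2.87% were higher and 9.68% lower with that fold. The TMM-scaled values of the 2 groups did not overlap for any of the 9 genes, which was so for 68.3% of all genes tested. The median log2 change of the 9 was -0.27 and that of all genes -0.0080.

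**Figure D1:**
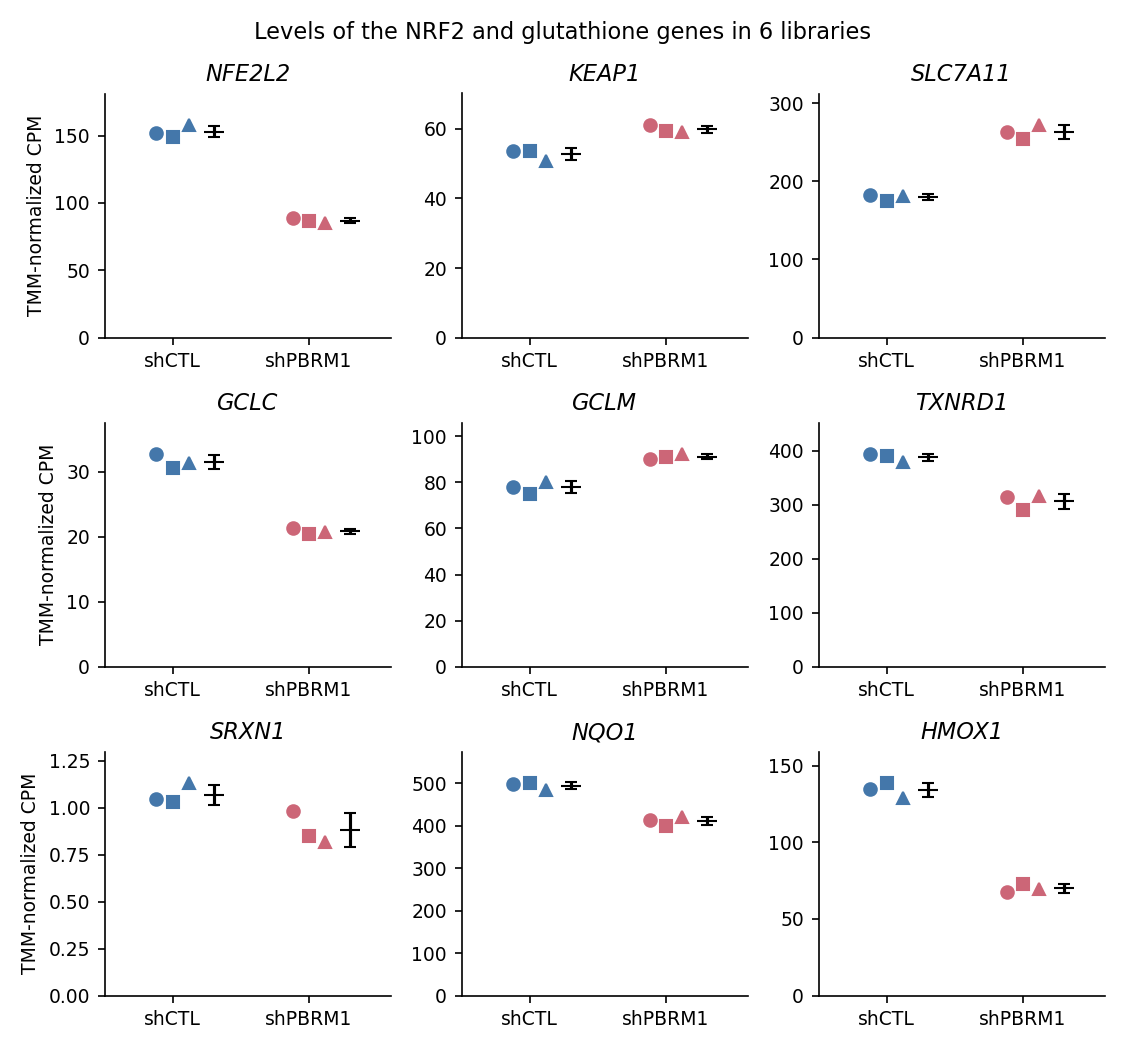
Level of each of the 9 genes in CPM in every library, with 1 panel per gene and its own axis. Circles, squares and triangles are replicates 1, 2 and 3 and black bars give the mean ± SD of 3 libraries; the 2 groups are apart in every panel, with the narrowest gap for SRXN1, from 0.983 to 1.03 CPM.

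NFE2L2, the gene of NRF2, lies on the minus strand of chromosome 2 from 177227595 to 177392697 (GENCODE v29 annotation of GRCh38). Counts were 5671, 7250 and 7948 in shCTL replicates 1 to 3 and 5353, 3357 and 5447 in the shPBRM1 replicates, or 152, 149 and 158 CPM against 89.2, 86.3 and 85.5 CPM. Every shPBRM1 library was far below every shCTL library. The mean fell from 153 ± 4.31 to 87.0 ± 1.95 CPM, or 56.9% of the control (log2 change -0.81, SE 0.030, edgeR adjusted p = 1.78e-15). Exons of NFE2L2 share 17.6% of their bases with AC019080.1 on the same strand, which has no row in the count table. How such reads were assigned is not given in the sources used here.

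KEAP1, on the minus strand of chromosome 19 from 10486120 to 10503741, had 2003, 2613 and 2560 counts in shCTL and 3661, 2310 and 3767 counts in shPBRM1 libraries. These were 53.7, 53.8 and 50.8 CPM against 61.0, 59.4 and 59.1 CPM, a small but separate shift. KEAP1 rose from 52.7 ± 1.70 to 59.8 ± 1.02 CPM, 1.14-fold (log2 change 0.18, SE 0.031, edgeR adjusted p = 0.000408).

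The activator and its repressor thus moved in opposite directions. Within a library, depth and scaling cancel in the ratio of NFE2L2 to KEAP1 counts, a measure chosen after the values were seen. It was 2.83, 2.77 and 3.10 in control cells and 1.46, 1.45 and 1.45 in silenced cells. The mean ratio of 1.45 ± 0.00811 was 0.501 of the control mean of 2.90 ± 0.177. Counts were not divided by gene length here, so only the change of the ratio, and not its size, can be read as unequal amounts of RNA.

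The supply of glutathione begins with SLC7A11 (xCT), which imports cystine in exchange for glutamate. The gene lies on the minus strand of chromosome 4 from 138164097 to 138242349. Counts were 6827, 8509 and 9148 in shCTL and 15792, 9872 and 17301 in shPBRM1 libraries, or 183, 175 and 181 CPM against 263, 254 and 271 CPM. All shPBRM1 values exceeded all shCTL values. SLC7A11 rose from 179.8 ± 4.18 to 263 ± 8.89 CPM, 1.46-fold (log2 change 0.55, SE 0.034, edgeR adjusted p = 1.13e-11). SLC7A11-AS1 overlaps 8.97% of its exon bases on the opposite strand and had only 38 to 84 counts per library. SLC3A2, the heavy chain that carries SLC7A11 to the membrane, was at 426 ± 13.6 CPM in shCTL and 446 ± 13.5 CPM in shPBRM1 cells, and this difference did not pass the test (log2 change 0.06, edgeR adjusted p = 0.178). SLC3A2 was chosen after its value was seen.

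Cysteine is joined to glutamate by glutamate-cysteine ligase, the rate-limiting enzyme of glutathione synthesis, which is built from the catalytic subunit GCLC and the modifier GCLM. GCLC, on the minus strand of chromosome 6 from 53497341 to 53616970, had 1220, 1488 and 1578 counts in shCTL libraries and 1277, 795 and 1326 in shPBRM1 libraries. These were 32.7, 30.6 and 31.3 CPM against 21.3, 20.4 and 20.8 CPM. GCLC fell to 66.2% of the control, from 31.5 ± 1.06 to 20.8 ± 0.423 CPM (log2 change -0.60, SE 0.033, edgeR adjusted p = 3.28e-09). AL033397.1 shares 6.12% of its exon bases on the same strand and has no row in the count table.

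GCLM, on the minus strand of chromosome 1 from 93885205 to 93909456, shares no exon bases with another gene. It had 2917, 3649 and 4052 counts in shCTL libraries and 5400, 3546 and 5874 in shPBRM1 libraries, which were 78.2, 75.1 and 80.3 CPM against 90.0, 91.1 and 92.2 CPM. In contrast to its partner, GCLM rose 1.17-fold, from 77.9 ± 2.65 to 91.1 ± 1.10 CPM (log2 change 0.23, SE 0.030, edgeR adjusted p = 5.83e-06). The ratio of GCLM to GCLC counts within a library, again chosen after the values were seen, was 2.39, 2.45 and 2.57 in shCTL and 4.23, 4.46 and 4.43 in shPBRM1 libraries. It was 1.77-fold higher, at 4.37 ± 0.126 against 2.47 ± 0.0898.

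**Figure D2:**
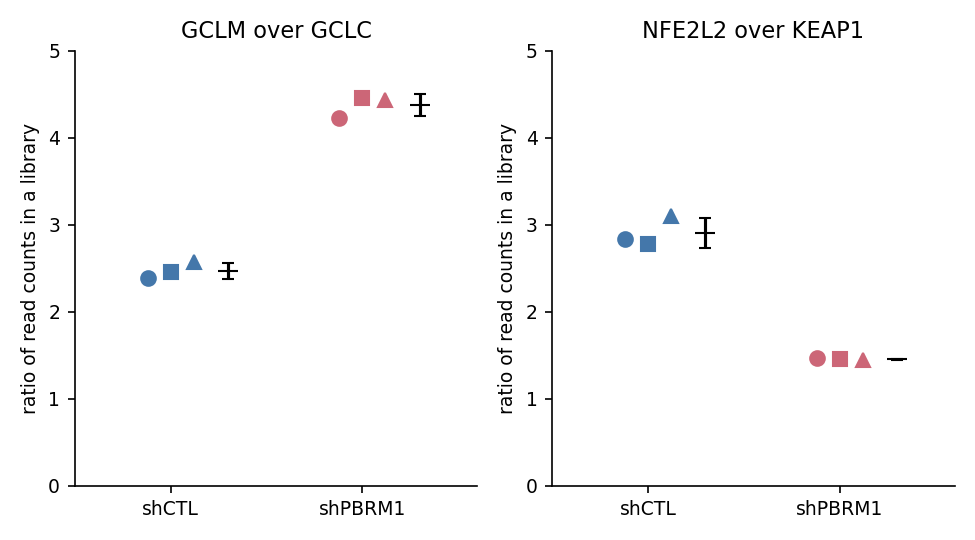
Ratio of raw counts within each library for GCLM over GCLC and for NFE2L2 over KEAP1, on linear axes starting at 0. Symbols are replicates 1, 2 and 3 and black bars the mean ± SD; the GCLM to GCLC ratio was higher in every shPBRM1 library (4.23 to 4.46 against 2.39 to 2.57) and the NFE2L2 to KEAP1 ratio lower (1.45 to 1.46 against 2.77 to 3.10).

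Reduction of thioredoxin, the other thiol system of the cytosol, depends on TXNRD1, a selenoprotein reductase that uses NADPH. TXNRD1 lies on the plus strand of chromosome 12 from 104215779 to 104350305. Counts were 14697, 18961 and 19190 in shCTL and 18845, 11315 and 20130 in shPBRM1 libraries, or 394, 390.1 and 381 CPM against 314, 291 and 316 CPM. Replicate 2 was the lowest of the shPBRM1 libraries, and the groups were apart with or without it. TXNRD1 fell from 388 ± 6.85 to 307 ± 14.0 CPM, 79.1% of the control (log2 change -0.34, SE 0.041, edgeR adjusted p = 1.82e-07).

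SRXN1, sulfiredoxin, restores peroxiredoxins whose active cysteine has been over-oxidized. It lies on the minus strand of chromosome 20 from 646615 to 653370, and 84.95% of its exon bases are shared with AL121758.1 on the same strand, so its counted level is uncertain. Only 39, 50 and 57 counts were found in shCTL and 59, 33 and 52 in shPBRM1 libraries. These gave 1.04, 1.03 and 1.13 CPM against 0.983, 0.848 and 0.816 CPM. The means of 1.07 ± 0.0546 and 0.882 ± 0.0886 CPM gave a log2 difference of -0.27 (SE 0.088) that did not pass the test (edgeR adjusted p = 0.32). Summed over each group, 146 and 144 counts gave a normalized ratio of shPBRM1 to shCTL of 0.827, with an exact 95% interval of 0.652 to 1.05 that covers counting error only. At this depth a decrease of the size seen for TXNRD1 would lie inside that interval. AL121758.1 has no row in the count table, and whether any SRXN1 reads were lost through the overlap was not tested.

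NQO1, a quinone reductase, and HMOX1, which opens the heme ring and releases iron and carbon monoxide, are the most used readouts of NRF2 activity. NQO1 lies on the minus strand of chromosome 16 from 69706996 to 69726951. It had 18564, 24267 and 24410 counts in shCTL libraries and 24761, 15568 and 26785 in shPBRM1 libraries, or 497, 499 and 484 CPM against 412, 400.0 and 420.2 CPM. The decrease, from 494 ± 8.30 to 411 ± 10.2 CPM or 83.3% of the control, was the smallest of the 5 that passed (log2 change -0.26, SE 0.025, edgeR adjusted p = 3.5e-06). Antisense AC092115.2 overlaps 17.7% of the exon bases of NQO1 and has no row in the count table. The sources used here do not say whether reads were counted by strand.

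HMOX1, on the plus strand of chromosome 22 from 35380361 to 35394214, shares no exon bases with another gene. It had 5041, 6730 and 6502 counts in shCTL libraries and 4055, 2832 and 4419 in shPBRM1 libraries, which were 135, 138 and 129 CPM against 67.5, 72.8 and 69.3 CPM. This was the largest change among the 9 genes. HMOX1 fell from 134 ± 4.83 to 69.9 ± 2.65 CPM, or 52.0% of the control (log2 change -0.94, SE 0.044, edgeR adjusted p = 2.66e-16).

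**Figure D3:**
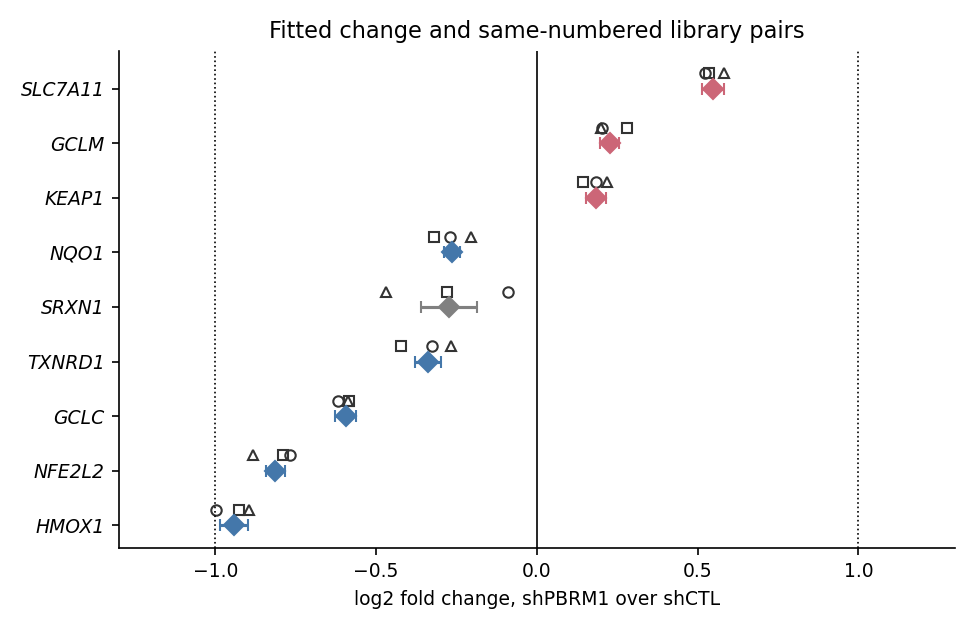
Log2 change of each of the 9 genes, shPBRM1 minus shCTL. Diamonds are the fitted change ± SE (red higher, blue lower, gray not past an adjusted p of 0.05), open symbols the differences between libraries of the same replicate number and dotted lines a 2-fold change; SLC7A11 (0.55) is the highest and HMOX1 (-0.94) the lowest, and all diamonds lie inside the dotted lines.

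Promoters were read to see how the genes differ in ARE letters close to their start. RefSeq windows of 250 bases before to 50 bases after a start (GRCh38.p14 table) matched 7 of the 9 genes with 10 windows. HMOX1 and SLC7A11 had no entry. In the NQO1 window, and in a window each of NFE2L2, KEAP1 and TXNRD1, all 250 bases before the start lay in annotated exons. Bases further upstream were not searched, so a gene without the core here may hold it elsewhere. The ARE core, TGACNNNGC on either strand, was found in 4 of the 10 windows, belonging to GCLM, TXNRD1 and KEAP1, and in 13.3% of the 35116 windows of all genes. The interferon-stimulated response element core was found in 1 window, of TXNRD1, against 3.57% of all windows. Neither the AP-1 letters TGANTCA (7.71% of all windows) nor the amino acid response element TGATGNAA (3.62%) were found in a window of the 9 genes. An ARE core whose free letters are TCA would also hold the AP-1 letters, and none of the matches was of this kind. The following stretches of GCLM, which rose, and TXNRD1, which fell, are shown because both carry the core; capitals mark its match, and both are read 5′ to 3′ on the strand of the gene.

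GCLM, chr1:93909456-93909555, minus strand, bases -125 to -26 from the start: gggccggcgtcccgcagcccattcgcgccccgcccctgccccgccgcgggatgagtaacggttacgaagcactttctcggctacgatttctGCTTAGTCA

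TXNRD1, chr12:104215630-104215729, plus strand, bases -149 to -50 from the start: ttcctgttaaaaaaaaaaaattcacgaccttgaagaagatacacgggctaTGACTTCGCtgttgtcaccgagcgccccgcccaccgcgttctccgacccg

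In GCLM the core is on the reverse strand, at bases -34 to -26. In TXNRD1 it reads forward at bases -99 to -91, and its windows hold further matches at -8 to 1 (GCTCCGTCA) and, from another start, at -102 to -94 (GCTTTGTCA). KEAP1, the repressor, has TGACACGGC at -54 to -46 and GCTTAGTCA at -31 to -23, the latter with the same 9 letters as in GCLM. Thus, within these windows, 2 genes that rose and 1 that fell held the letters. A match is a description of the sequence and not a bound site.

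Levels were compared between genes per length, as CPM per kilobase of all annotated exon bases (RPKM). Which transcripts the cells use was not tested, so the order rests on this choice of length. Before division by length, NFE2L2 was at 87.0 and KEAP1 at 59.8 CPM in shPBRM1 cells. SRXN1 was left out of this order because of its overlap. NQO1 was the highest, at a mean of 152 RPKM in shCTL and 126 RPKM in shPBRM1 cells, followed by TXNRD1 at 57.9 and 45.7 RPKM and HMOX1 at 55.8 and 29.1 RPKM. TXNRD1 and HMOX1 overlapped in shCTL cells (56.7 to 58.7 and 53.6 to 57.6 RPKM). NFE2L2 was at 25.6 RPKM in shCTL cells, above SLC7A11 at 18.6, GCLM at 14.4 and KEAP1 at 14.0 RPKM, of which GCLM and KEAP1 overlapped. In shPBRM1 cells NFE2L2, at 14.5 RPKM, was below SLC7A11 at 27.2, GCLM at 16.8 and KEAP1 at 15.9 RPKM, and SLC7A11 overlapped with HMOX1. GCLC was the lowest of the 8 in both groups, at 3.65 and 2.41 RPKM.

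The genes whose log2 CPM over the 6 libraries was most like that of a member were listed for the 3 members with the largest change, out of 11525 genes. They were EFHD1 and CTSA for HMOX1, both with r = 0.9998 and with log2 changes of -1.09 and -0.69. For NFE2L2 they were DLC1 and MRAS (r = 0.9999 and 0.9998, log2 changes -0.87 and -2.63), and for GCLC they were CLOCK and DHX33 (r = 0.9998 and 0.9997, log2 changes -0.55 and -0.34). The points share library and group, and any gene with separate groups and small spread gives a high r, so these values describe likeness only.

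The other genes of the pathway were counted in 10 lists of 120 genes, each counted once, of which 118 were in the table and 111 were tested. At the same adjusted p, 33 of these were higher, where 31.5% of all genes tested were, 56 were lower, where 33.2% of all genes were, and 22 did not pass, with a median log2 change of -0.14 against -0.0080 for all genes. With a fold change over 2 as well, 20 of the 111 were lower, beside 9.68% of all genes. None of the 111 was higher with that fold by edgeR, beside 2.87% of all genes, which was also 0 at an unadjusted p under 0.05 and with DESeq2. The same shares of all genes, 31.5% higher and 33.2% lower, stand beside the counts of each list below. A count near these shares shows nothing particular to its list.

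All 12 genes of the list of NRF2 partners and regulators passed, 4 higher and 8 lower, with a median log2 change of -0.42. Beside these counts, 31.5% of all genes tested were higher and 33.2% lower. MAFF, a small MAF partner of NRF2, fell from 91.7 ± 2.60 to 30.6 ± 1.08 CPM (log2 change -1.58, edgeR adjusted p = 1.48e-19). BTRC, an F-box protein that degrades NRF2 independently of KEAP1, rose from 26.4 ± 0.544 to 43.8 ± 1.21 CPM (log2 change 0.73, edgeR adjusted p = 1.28e-11). Chosen after their values were seen, the other small MAF genes MAFG and MAFK fell by 0.53 and 0.52 on the log2 scale. BACH1, the repressor that competes for ARE and is best known at HMOX1, fell by 0.59. The ligase genes CUL3 and RBX1 rose by 0.29 and 0.46, and SQSTM1, which draws KEAP1 into autophagy, fell by 0.80.

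Of the list for glutathione synthesis and turnover, 13 of 14 genes were tested, with 4 higher, 6 lower and 3 not past the test (median log2 change -0.06). LAP3, a leucine aminopeptidase, fell from 123 ± 2.49 to 52.5 ± 0.524 CPM (log2 change -1.23, edgeR adjusted p = 4.11e-19). GGT5, which cleaves glutathione conjugates outside the cell, fell from 4.54 ± 0.293 to 0.384 ± 0.0897 CPM (log2 change -3.52, edgeR adjusted p = 1.54e-13). GSR, which regenerates reduced glutathione and was chosen after its value was seen, rose from 97.6 ± 2.79 to 132 ± 1.53 CPM (log2 change 0.43). CHAC2, which degrades glutathione, had the highest fitted change (log2 change 0.45, edgeR adjusted p = 0.0242), but its groups overlapped. Its log2 change was 0.31 without shCTL replicate 3 (edgeR adjusted p = 0.166), 0.28 without shPBRM1 replicate 2 (adjusted p = 0.167) and 0.43 without shPBRM1 replicate 3 (adjusted p = 0.088), and with DESeq2 the adjusted p was 0.0556. The count of higher genes was then 1 without shCTL replicate 3, and 2 without either of the other 2 libraries or with DESeq2.

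Among 6 glutathione peroxidases, 3 were higher, 1 lower and 2 did not pass (median log2 change 0.26). GPX8, a peroxidase of the endoplasmic reticulum, rose from 133 ± 4.57 to 189.6 ± 5.95 CPM (log2 change 0.51, edgeR adjusted p = 3.05e-11), whereas GPX7, of the same compartment, fell from 3.10 ± 0.0777 to 2.03 ± 0.349 CPM (log2 change -0.62, edgeR adjusted p = 0.00142). Of 13 glutathione transferases tested, 3 were higher, 6 lower and 4 did not pass (median log2 change -0.24). MGST3 rose from 25.3 ± 0.802 to 42.3 ± 3.50 CPM (log2 change 0.74, edgeR adjusted p = 2.27e-10). GSTM4 fell from 3.87 ± 0.242 to 1.85 ± 0.147 CPM (log2 change -1.06, edgeR adjusted p = 8.11e-07), a value that is uncertain because reads can be shared with the other GSTM genes.

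The thioredoxin, glutaredoxin and peroxiredoxin list, to which TXNRD1 and SRXN1 are functionally tied, had 7 of 18 genes higher, 9 lower and 2 not past the test (median log2 change -0.13). PRDX1, the main cytosolic peroxiredoxin, rose from 195 ± 3.30 to 367 ± 6.25 CPM (log2 change 0.91, edgeR adjusted p = 8.85e-16). PRDX6 instead fell from 153 ± 3.64 to 74.7 ± 0.623 CPM (log2 change -1.03, edgeR adjusted p = 9.48e-18). TXNIP, the inhibitor of thioredoxin, fell from 291 ± 3.41 to 69.9 ± 1.42 CPM (log2 change -2.06, edgeR adjusted p = 6.86e-23), and GLRX, glutaredoxin, from 8.58 ± 0.0784 to 1.49 ± 0.229 CPM (log2 change -2.54, edgeR adjusted p = 2.01e-14). Thioredoxin itself, TXN, chosen after its value was seen, rose from 137 ± 10.3 to 199.8 ± 13.6 CPM (log2 change 0.54).

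Of 4 superoxide dismutase and catalase genes tested, 1 was higher and 3 lower (median log2 change -0.59). SOD1, the cytosolic dismutase, rose from 99.8 ± 3.90 to 142 ± 1.41 CPM (log2 change 0.51, edgeR adjusted p = 1.22e-11). Catalase, CAT, fell from 95.5 ± 2.86 to 49.3 ± 1.06 CPM (log2 change -0.95, edgeR adjusted p = 2.61e-16). SOD2, the mitochondrial dismutase, was chosen after its value was seen and fell from 3807 ± 49.9 to 2070.4 ± 50.4 CPM (log2 change -0.88).

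In the NADPH list, 4 of 10 genes were higher, 3 lower and 3 did not pass, with a median of 0.04. MTHFD1, of folate metabolism, rose by 0.33 on the log2 scale (127 ± 3.71 to 159.6 ± 7.04 CPM, edgeR adjusted p = 6.24e-08). TKT, transketolase, fell by 0.35 (462 ± 7.54 to 362 ± 0.914 CPM, edgeR adjusted p = 3.28e-08). The lower count was 1 without shCTL replicate 2 or without shPBRM1 replicate 3. In the heme and iron list, around HMOX1, 3 of 9 genes tested were higher, 3 lower and 3 did not pass (median -0.05). FECH, which makes heme, rose from 30.0 ± 0.854 to 54.5 ± 1.74 CPM (log2 change 0.86, edgeR adjusted p = 1.87e-13), and FTL, the ferritin light chain, fell from 2215 ± 119 to 1431 ± 127 CPM (log2 change -0.63, edgeR adjusted p = 5.16e-11).

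The list of detoxifying enzymes and exporters tied to NRF2 had 3 of 20 genes higher, 14 lower and 3 not past the test, and 9 of the 14 were lower with a fold change over 2 (median log2 change -0.57). Of all genes tested, 31.5% were higher, 33.2% were lower and 9.68% were lower with that fold. AKR1B10, AKR1C2, AKR1C3 and ALDH3A1, among the 9, had means of only 26.5, 26.2, 42 and 10.7 counts. With a minimum mean of 50 counts, which takes these genes out of the list, it had 10 lower genes. Among all genes, 4600 of the 12506 tested with that minimum were lower. AKR1C1, an aldo-keto reductase, had 126, 177 and 233 counts in shCTL and 31, 12 and 28 counts in shPBRM1 libraries and fell from 3.88 ± 0.655 to 0.421 ± 0.105 CPM (log2 change -3.16, edgeR adjusted p = 5.18e-12), with reads that AKR1C2 and AKR1C3 could share. OSGIN1, a growth inhibitor induced by oxidants, fell from 6.58 ± 0.396 to 1.52 ± 0.161 CPM (log2 change -2.13, edgeR adjusted p = 1.37e-12). The exporter ABCC3 fell from 24.0 ± 1.06 to 9.87 ± 1.25 CPM (log2 change -1.29, edgeR adjusted p = 2.06e-12). UGDH, which makes UDP-glucuronate, and the epoxide hydrolase EPHX1 each fell by 1.20 on the log2 scale (158 ± 6.001 to 68.8 ± 1.91 CPM and 123 ± 3.77 to 53.9 ± 2.13 CPM, edgeR adjusted p = 2.76e-18 and 4.01e-18). PIR, pirin, rose from 16.7 ± 0.970 to 25.6 ± 0.668 CPM (log2 change 0.61, edgeR adjusted p = 1.42e-08). ALDH3A1, chosen after its values were seen, had 61 counts over the shCTL and 3 over the shPBRM1 libraries, a normalized ratio of 0.0412 with an exact 95% interval of 0.00827 to 0.126 that covers counting error only.

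SLC7A11 is also a target of ATF4, the transcription factor of the amino acid response. Of the 8 genes of the ATF4 list, 1 was higher, 4 were lower and 3 did not pass (median log2 change -0.13). DDIT3 fell from 71.7 ± 4.28 to 25.5 ± 1.61 CPM (log2 change -1.49, edgeR adjusted p = 4.37e-17). PSAT1, of serine synthesis, was the 1 higher gene, from 580.3 ± 2.53 to 632 ± 15.7 CPM (log2 change 0.12, edgeR adjusted p = 0.007), and with scaling by library size only its change of 0.07 did not pass (adjusted p = 0.1). SLC7A11 rose under every scaling tried.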

How the data were processed

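Raw counts by gene symbol, deposited by the authors before normalization, were used for 3 shCTL and 3 shPBRM1 libraries of BT-549 cells. The submitters' processing notes name CASAVA 1.8.2, STAR 2.7.9a, featureCounts, DESeq2 1.24.0 and GRCh38.p7 without order; the annotation and the use of strand in counting are not given in the sources used here. Of 37887 rows, 14 carried dates in place of symbols and were not named, and 12608 had no count. Groups came from the sample titles. The shPBRM1 columns of the table carry the sample titles; the control columns name only the cell line and a number, and were taken as the control libraries because they lack the name shPBRM1 and end in the replicate number.

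Counts were analyzed with edgeR 4.0.16 (R 4.3.3), using TMM factors, filterByExpr (15450 genes kept), the quasi-likelihood F-test and Benjamini-Hochberg adjustment over the genes tested. Standard errors come from log2 CPM with a prior count of 2. Libraries of a group differed by more than sampling noise (chi-square per degree of freedom 4.92 to 24.9). Libraries of the same replicate number in the titles deviated together (r = 0.734, 0.593 and 0.419 across 5622 genes, which are not independent replicates), while pairs of different number ranged from -0.671 to 0.464, the highest being shCTL 2 with shPBRM1 3, and this number was also fitted as a block. Positions, overlaps and exon lengths come from GENCODE v29 on GRCh38, and promoters from RefSeq. The edgeR test was checked on simulated counts with a fixed dispersion, the same for every gene, and no effect of replicate number. That check therefore does not cover the uneven spread between these libraries.

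The 9 genes, the lists and the tests were chosen with earlier results of these data known. From each list, the genes with the largest rise and the largest fall among those with an adjusted p under 0.05 and a mean of at least 100 counts are named, with every such gene past a fold change of 2. Genes outside this rule are said to be chosen after their values were seen. Alternatives were DESeq2 1.42.0, scaling by RLE or by library size alone, the replicate block, a fit without the low-count filter or with a minimum mean of 50 counts, leaving out each library, and an adjusted p under 0.001. Their use on the lists was added after seeing the data.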

Additional observations from a re-analysis of the deposited data

How the results depend on the processing

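The 9 genes kept their directions under each alternative that gave a value. The 8 that passed did so in all 13 alternatives, with log2 changes of -0.86 to -0.79 for NFE2L2, 0.13 to 0.20 for KEAP1, 0.50 to 0.58 for SLC7A11 and -0.99 to -0.91 for HMOX1. SRXN1 passed in none of 12 (edgeR or DESeq2 adjusted p 0.25 to 0.527) and gave no value with a mean of at least 50 counts, since its counts are too few. With that filter, which leaves fewer genes, 270 genes were higher and 941 lower with a fold change over 2, in place of 443 and 1496. With the replicate block none of the 9 genes, PBRM1 and the list genes named by the rule changed its call, 3 of the 9 genes were higher and 5 lower, and HMOX1 changed by -0.94 and SLC7A11 by 0.55, while the lower genes went from 9 to 10 in the thioredoxin list and from 3 to 4 in the heme and iron list. No result was reversed. Beside the counts and genes given above, an adjusted p under 0.001 left 1 higher gene for glutathione synthesis, 0 lower peroxidases, 3 lower transferases, 1 lower NADPH gene and 0 higher ATF4 targets. The shares of all genes given above are for an adjusted p under 0.05 and cannot be set beside these counts. The glutathione synthesis list had 2 higher genes, and the ATF4 list 0, with library size only; the cause was not tested. Scaling moved the median of all genes to between -0.06 and -0.0021. Depth limits SRXN1 and the other genes with under 100 counts, for which counting error alone is wide.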
